A study of Homo sapiens with 24 samples.

Results

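Sites of S100A8/A9 binding in later introns are places inside a protein-coding gene, past its first intron and away from every annotated transcription start site (TSS), where S100A8-Flag or S100A9-Flag was called by chromatin immunoprecipitation-sequencing (ChIP-seq). They were chosen on the measured peak calls. Peaks of the 11 lists with −log10 q of at least 7 on chromosomes 1 to 22 and X were merged by 1 bp within each of the 4 conditions, kept with peaks of at least 2 replicates, and merged over the conditions into 30322 union sites. The summit of a union site was that of its peak with the highest −log10 q. A union site was a member when this summit lay in intron 2 or later of the longest transcript of a protein-coding gene, in no first intron. The summit also had to lie more than 1500 bp from every TSS of a protein-coding or lncRNA gene in GENCODE 44 on GRCh37. These conditions held for 4758 of the 30322 sites, or 15.7%. The other sites were 13335 near a TSS, 9207 intergenic, 2118 in first introns, 479 over exons, and 425 elsewhere in genes. Later introns as defined here take up 27.3% of the known bases of these chromosomes.

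The cells were of the human breast epithelial line MCF-10A, which is not transformed, with an inducible oncogene named ER-Src. In it v-Src is joined to the part of estrogen receptor that binds hormone. All cells of the 4 conditions, the EtOH controls included, carried ER-Src and stably expressed either S100A8-Flag or S100A9-Flag. Cells were kept for 24 hours in ethanol (EtOH), which leaves them nontransformed, or in 1 μM 4-hydroxytamoxifen (TAM), which switches on v-Src and transforms them. For S100A8-Flag there were 2 EtOH and 3 TAM libraries, and for S100A9-Flag 3 of each, all labelled as biological replicates. The Flag-tagged proteins were expressed from added genes, and the study states that their level in the nucleus rises in TAM. No library of the Flag antibody in cells without a tagged protein is among the 24 samples. Binding and background that comes with the antibody therefore cannot be told apart at a site.

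S100A8 and S100A9 are small calcium-binding proteins, best known as secreted inflammatory cytokines, and have no DNA binding domain of a known kind. A peak of theirs in ChIP shows only that the protein was near that stretch of DNA when it was cross-linked. Introns carry many of the enhancers of mammalian genes, which are short stretches bound by sequence-specific transcription factors, and those far from a start site tend to be used in fewer cell types than promoters. AP-1, a dimer of JUN and FOS proteins, is a main factor at enhancers of epithelial cells and of cells transformed by Src, and CTCF is the zinc finger protein that anchors chromatin loops.

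The sequences of 9 sites are shown first because they carry the patterns described below. Each shows 50 bp to either side of the summit, read 5′ to 3′ from the forward strand of GRCh37, and capitals mark every match to 1 of 15 motifs searched on both strands without mismatch. The letters searched were TGAGTCA or TGACTCA for AP-1, TGACGTCA for CREB, TTGCNNAA or TTACNNAA for CEBP, TTCNNNGAA for STAT, CGGAAG and AGGAAG for ETS, CCCCGCCC for KLF/SP1, CATTCC for TEAD, TGTGGT for RUNX, AACNNGTT for GRHL, TGTTTAC for FOX, and CACGTG for the E-box, besides the longer consensus of CTCF, NF-kB, and p53/p63. The CREB and AP-1 letters do not match each other, whereas CEBP, STAT, and ETS letters may overlap with others in a window. A match describes the letters and does not show that the factor is bound. The first 6 are the later-intron sites with peaks in the most libraries, ties taken by mean rank, and the last 3 are those with the highest ranks among sites with peaks in all 6 TAM libraries and in no EtOH library.
DPP6 intron 7 (chr7:154453889-154453989): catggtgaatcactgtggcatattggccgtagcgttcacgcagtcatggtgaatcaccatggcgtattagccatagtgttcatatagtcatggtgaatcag
ANTXR1 intron 14 (chr2:69405519-69405619): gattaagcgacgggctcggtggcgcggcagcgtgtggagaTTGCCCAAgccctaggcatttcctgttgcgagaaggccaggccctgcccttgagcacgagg
SMOC1 intron 11 (chr14:70494630-70494730): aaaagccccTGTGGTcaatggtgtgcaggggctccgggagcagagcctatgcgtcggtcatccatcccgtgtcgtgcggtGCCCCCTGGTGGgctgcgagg
ASTN2 intron 19 (chr9:119311713-119311813): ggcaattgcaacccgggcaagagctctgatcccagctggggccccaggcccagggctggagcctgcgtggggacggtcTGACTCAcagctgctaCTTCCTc
SSH1 intron 2 (chr12:109232248-109232348): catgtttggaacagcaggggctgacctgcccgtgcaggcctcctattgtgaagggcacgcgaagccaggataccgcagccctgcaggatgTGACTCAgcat
GAS6 intron 6 (chr13:114540785-114540885): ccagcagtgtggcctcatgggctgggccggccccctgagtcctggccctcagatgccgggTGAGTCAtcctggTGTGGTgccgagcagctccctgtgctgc
MYLK4 intron 6 (chr6:2684480-2684580): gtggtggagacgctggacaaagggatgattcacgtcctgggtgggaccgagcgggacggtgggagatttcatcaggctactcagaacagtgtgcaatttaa
BAIAP2 intron 7 (chr17:79075660-79075760): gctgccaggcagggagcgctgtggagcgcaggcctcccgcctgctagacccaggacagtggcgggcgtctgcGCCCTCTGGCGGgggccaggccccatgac
SLC25A48 intron 3 (chr5:134986910-134987010): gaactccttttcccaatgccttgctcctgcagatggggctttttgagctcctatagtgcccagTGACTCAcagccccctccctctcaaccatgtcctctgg

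Only 2 of the 4758 sites, or 0.042%, had a peak in all 11 libraries, against 0.346% of all union sites. The site in intron 7 of DPP6, a gene of a membrane protein that modulates potassium channels, spans chr7:154453694-154454193 on the plus-strand gene and lies 80724 bp from the nearest TSS. Fold enrichment at its summit over the input of the same library, as MACS2 gives it, was 8.19 and 16.2 in S100A8-Flag EtOH, 22.8, 15.7, and 12.9 in S100A8-Flag TAM, 7.95, 14.8, and 11.2 in S100A9-Flag EtOH, and 10.1, 8.51, and 17.5 in S100A9-Flag TAM. The EtOH and TAM values overlapped. Fold enrichment is not comparable between libraries, so such comparisons of treatments at single sites, here and below, are a description. The printed window holds no match to the 15 motifs, and it holds 3 copies of the run catggtgaatca. The other site, in intron 14 of ANTXR1, which encodes an anthrax toxin receptor that binds extracellular matrix, ranged from 8.68 to 10.7 in 4 of the 5 EtOH libraries, with 6.84 in the fifth, and from 5.05 to 17.1 in the TAM libraries. These values also overlapped between the treatments. Its window holds a CEBP match just before the summit.

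The next 4 sites had peaks in 4 EtOH and 6 TAM libraries, and 3 of them hold an AP-1 match. At the site in intron 19 of ASTN2 (chr9:119311600-119311961), a gene of neuronal migration, fold enrichment was 10.6 and 10.2 in S100A8-Flag EtOH, 9.29, 21.9, and 17.3 in S100A8-Flag TAM, 7.64 and 8.57 in the S100A9-Flag EtOH libraries that called it, and 17.1, 17.5, and 14.9 in S100A9-Flag TAM. Of the 6 TAM values, 5 lay above all EtOH values. Ranked by fold enrichment within each library, its mean percentile was 63.1 over the EtOH libraries that called it and 94.5 over the TAM libraries. The site in intron 2 of SSH1 (chr12:109232069-109232576), a phosphatase that activates the actin-severing protein cofilin, gave 7.58 to 10.8 in 4 EtOH libraries and 9.11 to 22.1 in TAM. The site in intron 6 of GAS6 (chr13:114540050-114541355), the ligand of the receptor kinases AXL, TYRO3, and MERTK, went the other way in S100A8-Flag, with 16.9 and 14.8 in EtOH and 12.2, 7.88, and 9.33 in TAM. In S100A9-Flag the values overlapped, with 8.35 and 7.75 in EtOH and 10.6, 9.90, and 7.34 in TAM. Over both proteins, the mean percentile of the GAS6 site was 75.3 in the EtOH libraries that called it and 69.3 in TAM. Its summit lies 1818 bp from a TSS and 207 bp from an exon of the transcript. The site in intron 11 of SMOC1 (chr14:70494491-70494842), which encodes a calcium-binding matrix protein, holds a CTCF match and gave 8.70 to 17.2 in 4 EtOH libraries and 8.64 to 25.1 in TAM, which overlap.

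The sites of MYLK4, BAIAP2, and SLC25A48 had a peak in every TAM library and in no EtOH library. At intron 6 of MYLK4, a myosin light chain kinase gene, fold enrichment was 9.72, 17.4, and 10.7 in S100A8-Flag TAM and 22.7, 11.8, and 16.9 in S100A9-Flag TAM. At intron 7 of BAIAP2, a scaffold protein of the actin cytoskeleton, it was 19.4, 7.61, and 11.95 in S100A8-Flag TAM and 19.7, 13.9, and 11.99 in S100A9-Flag TAM, beside a CTCF match. At intron 3 of SLC25A48, a mitochondrial carrier gene, it was 20.03, 11.6, and 17.5 in S100A8-Flag TAM and 10.6, 9.76, and 9.54 in S100A9-Flag TAM, beside an AP-1 match. The deposited EtOH lists also hold weaker peaks, and these were at the BAIAP2 site in 3 libraries, with fold enrichment of 6.39, 4.39, and 6.64, and at the SLC25A48 site in 2, with 4.58 and 4.59. They were below every TAM value of the same site. The sites were chosen for these calls, so that order is a description. No EtOH list held a peak of any q at the MYLK4 site.

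Calls at the sites follow the rule that chose them and are given without a test. In TAM, S100A8-Flag was called at 2482, 2438, and 2210 of the 4758 sites, or 52.2%, 51.2%, and 46.4%, against 58.9%, 56.3%, and 51.6% of all union sites in the same libraries. S100A9-Flag in TAM was called at 2891, 2692, and 3810, or 60.8%, 56.6%, and 80.1%, against 64.6%, 63.6%, and 84.0%. In EtOH, S100A8-Flag was called at 303 and 315, or 6.37% and 6.62%, against 11.8% and 12.4%. S100A9-Flag in EtOH was called at 199, 85, and 258, or 4.18%, 1.79%, and 5.42%, against 9.20%, 5.16%, and 11.2%. Every TAM library called more of the sites than every EtOH library, and S100A9-Flag TAM replicate 3 called the most. These libraries also differed over the genome, with 21518 to 40735 peaks per TAM list and 1853 to 4609 per EtOH list at q ≤ 1e-07. Without S100A9-Flag TAM replicate 3 there are 3361 sites in later introns. The lists give no read numbers, so fewer calls, lower depth, and weaker binding cannot be told apart.

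Peaks in at least 1 EtOH library were found at 872 of the sites, or 18.3%, against 31.1% of all union sites. Peaks in all 6 TAM libraries were found at 395, or 8.30%, against 14.3%. Both shares lie below the background, and the first-intron sites stood at 20.5% and 10.6% and the promoter sites at 44.9% and 20.2%. Peaks in all 6 TAM libraries and no EtOH library were found at 206 sites, or 4.33%, near the 4.69% of all union sites. Of these 206 sites 145, or 70.4%, had a weaker peak in a deposited EtOH list, as had 75.8% of the 1421 union sites of the same kind, so most were not without signal in EtOH. A larger share of EtOH than of TAM libraries called 40 sites, or 0.841%, against 0.953% of all. Of the 4758 sites, 1054 had peaks in exactly 2 libraries, the fewest that the rule admits. Of the 3886 sites with no EtOH peak at q ≤ 1e-07, 1456, or 37.5%, had a weaker one, against 49.7% of such union sites.

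**Figure D1:**
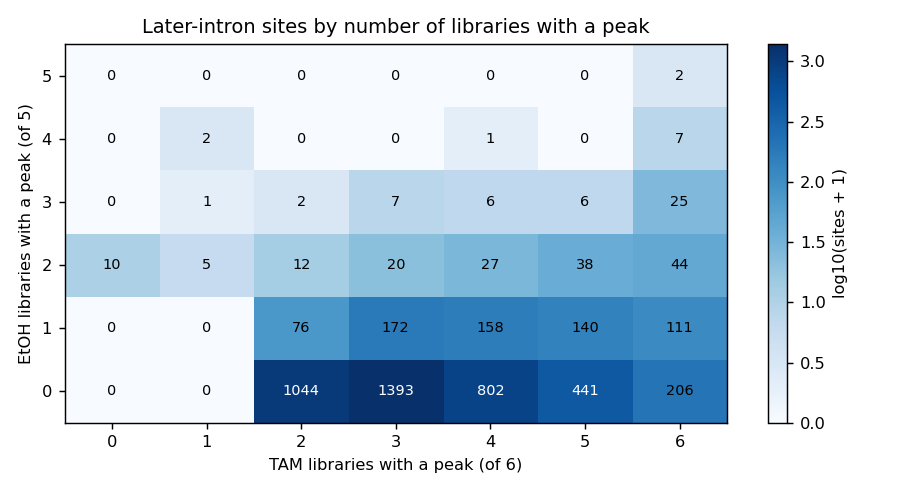
Number of later-intron sites by how many of the 6 TAM libraries (horizontal) and of the 5 EtOH libraries (vertical) had a peak there, with the number of sites in each cell and the shade on a log10 scale. Most sites lie in the bottom row, with 3886 called in no EtOH library, and the top right cell holds the 2 sites called in all 11.

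Peaks in at least 2 replicates were found for S100A8-Flag TAM at 2596 sites and for S100A9-Flag TAM at 3718, or 54.6% and 78.1%, against 60.1% and 82.3% of all union sites. For S100A8-Flag EtOH there were 72 and for S100A9-Flag EtOH 57, or 1.51% and 1.20%, against 4.01% and 4.54%. Both proteins in TAM shared 1579 sites, or 33.2%, against 42.8% of all union sites. With 1 TAM library left out at a time, the shared count was 889 to 1157. S100A9-Flag alone in TAM had 2139 sites, or 44.96%, and S100A8-Flag alone 1017, or 21.4%, against 39.5% and 17.4% of all union sites. This order depends on single libraries. Without S100A9-Flag TAM replicate 3, S100A9-Flag alone had 726 sites and S100A8-Flag alone 1715, and without replicate 1 or 2 of S100A9-Flag TAM the counts were 1158 and 1481, or 1274 and 1439. Leaving out an S100A8-Flag TAM library instead gave 2741 to 2818 for S100A9-Flag and 393 to 498 for S100A8-Flag. Where both were called in TAM, their summits lay a median of 25 bp apart, with 81.3% of 1579 within 50 bp. At 862 sites called in both treatments, the summits of EtOH and TAM lay a median of 30 bp apart, and 70.5% were within 50 bp.

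Sites of a single protein with peaks in all 3 of its TAM libraries and in none of the other protein's were fewer, with 183 for S100A9-Flag and 44 for S100A8-Flag, or 3.85% and 0.925%, against 3.21% and 0.587% of all union sites. The highest ranked of these for each protein, by mean rank over the TAM libraries, are shown with the letters beside their summits. Also shown is KCNIP3 intron 2, which tied with PRKAG2 intron 3 for the largest excess of EtOH libraries, at 4 EtOH and 1 TAM.
MORN1 intron 6 (chr1:2313294-2313394): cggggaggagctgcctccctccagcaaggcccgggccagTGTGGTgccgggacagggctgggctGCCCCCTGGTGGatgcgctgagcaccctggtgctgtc
IMMP2L intron 3 (chr7:110838545-110838645): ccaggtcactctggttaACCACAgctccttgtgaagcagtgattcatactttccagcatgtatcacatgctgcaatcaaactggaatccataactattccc
KCNIP3 intron 2 (chr2:95981960-95982060): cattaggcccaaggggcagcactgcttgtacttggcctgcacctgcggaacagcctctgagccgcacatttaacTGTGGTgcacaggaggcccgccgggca

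The site in intron 6 of MORN1 (chr1:2313077-2313590) holds CTCF and RUNX matches, and its fold enrichment was 10.1, 13.7, and 11.6 in the S100A9-Flag TAM libraries. No other library called it. At intron 3 of IMMP2L (chr7:110838348-110838689), a mitochondrial inner membrane peptidase gene, the S100A8-Flag TAM libraries gave 14.2, 9.85, and 8.97, and the window holds RUNX letters. No other library called that site either. The site in intron 2 of KCNIP3, a calcium sensor that interacts with potassium channels, is 1584 bp from a TSS, close to the limit of 1500 bp. It had 10.3 and 11.7 in S100A8-Flag EtOH, 9.67 and 7.37 in S100A9-Flag EtOH replicates 2 and 3, and 6.93 in S100A8-Flag TAM replicate 1, and the other 5 TAM libraries did not call it.

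To compare treatments without the rule that chose the sites, each library's own peaks were placed by their own summits. Later introns held 10.03% and 9.79% of the peaks of S100A8-Flag EtOH and 15.97%, 16.4%, and 15.8% of those of S100A8-Flag TAM. They held 8.71%, 6.15%, and 9.70% of the peaks of S100A9-Flag EtOH and 15.7%, 14.7%, and 16.9% of those of S100A9-Flag TAM. All 6 TAM values lay above all 5 EtOH values. The TAM libraries averaged 15.9% ± 0.74 (SD, n = 6), against 8.88% ± 1.604 (SD, n = 5) for the EtOH libraries. The difference within proteins was 6.86 percentage points (two-sided exact permutation test of treatment within protein, p = 0.01, the smallest that 200 arrangements give; adjusted p = 0.015 over 15 comparisons). With 1853 peaks in every library, the number in the shortest list, the values were 8.69% and 8.15% against 10.3%, 13.9%, and 11.5% for S100A8-Flag, and 6.91%, 6.15%, and 8.31% against 11.9%, 9.88%, and 10.4% for S100A9-Flag. The difference was then 3.55 percentage points (exact permutation test, p = 0.01), so that the number of peaks per library moved its size by over 1.5 times but not its call.

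**Figure D2:**
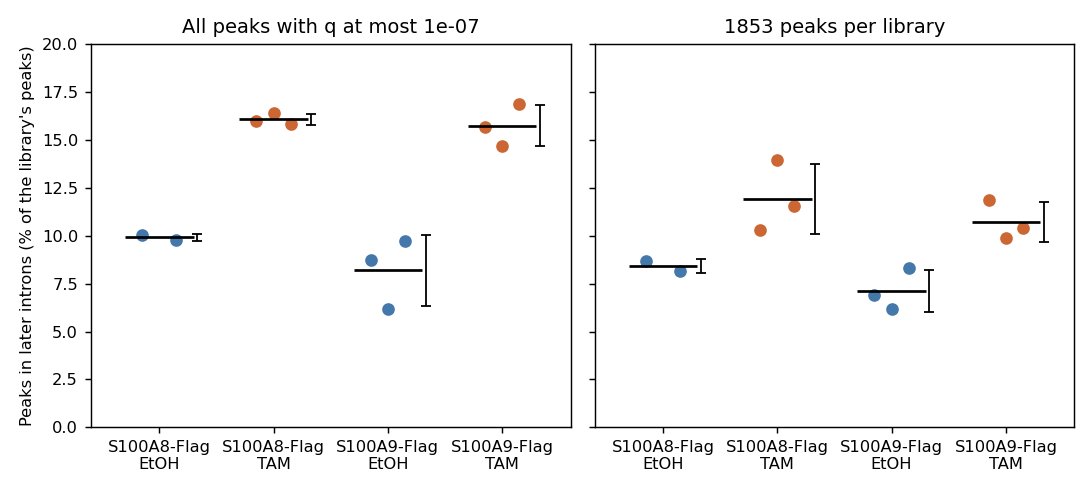
Share of each library's peaks whose summit lies in a later intron, in percent, with all peaks at q ≤ 1e-07 (left) and with 1853 peaks per library (right); points are libraries, horizontal lines are group means, and error bars are SD. In both panels every TAM library lies above every EtOH library.

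The shares of a library add up to the whole, and the promoter share was 64.7% ± 4.79 in EtOH and 43.7% ± 2.05 in TAM, while the intergenic share was 19.7% ± 2.41 and 30.3% ± 1.10 (SD, same libraries). First introns held 4.61% ± 0.63 of the peaks of EtOH libraries (SD, n = 5) and 7.18% ± 0.31 of those of TAM libraries (SD, n = 6). The ratio of later-intron to first-intron peaks, on a log2 scale, averaged 0.93 ± 0.10 over EtOH libraries and 1.15 ± 0.04 over TAM libraries (SD), a difference of 0.21 within proteins (exact permutation test, p = 0.01, adjusted p = 0.015). This call did not hold with 1853 peaks per library, at 0.13 (exact permutation p = 0.37), nor with every deposited peak, at 0.13 (p = 0.07), nor when first introns of every transcript were set aside, at 0.07 (p = 0.23). Against intergenic peaks, the log2 ratio of later-intron peaks was 0.22 higher in TAM (exact permutation test, p = 0.01, adjusted p = 0.015). S100A9-Flag libraries held a share in later introns 1.02 percentage points below S100A8-Flag libraries within treatments (exact permutation test, p = 0.17, adjusted p = 0.213), which did not pass. Without S100A9-Flag TAM replicate 3 it was −1.30 and passed (exact permutation test, p = 0.02), and with every deposited peak it was 0.164 (p = 0.94).

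Later-intron peaks ranked below promoter peaks. The median percentile of later-intron peaks by fold enrichment in their own library averaged 44.8 ± 3.11 for EtOH libraries (SD, n = 5) and 46.8 ± 0.97 for TAM libraries (SD, n = 6), and that of promoter peaks was 52.6 ± 1.35 and 53.7 ± 0.79. The difference of −7.31 percentiles from promoters passed an exact permutation of signs over the 11 libraries (p = 0.000977, the smallest it can give; adjusted p = 0.0146). The differences of −0.372 from first introns (adjusted p = 0.586) and −1.38 from intergenic peaks (adjusted p = 0.255) did not pass the same exact permutation test. The treatments differed by 1.79 percentiles (exact permutation test, p = 0.19, adjusted p = 0.219), which did not pass either.

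AP-1 was the most frequent of the 15 motifs at the sites, and AP-1 and CTCF letters peaked at the summit. Within 100 bp of the summit 1877 of the 4758 sites, or 39.5%, held an AP-1 match, whereas 3.604% of 9516 windows 1000 bp to either side did, and 2.96% of 387692 windows tiled over all later introns. The density of AP-1 matches was 4.17 per kb within 25 bp of the summit and 0.187 per kb at 400 to 500 bp. CTCF letters were at 604 sites, or 12.7%, against 0.47% of the windows to either side, and with 1.77 per kb at the summit against 0.0231. AP-1 and CTCF matches were seldom at the same site. Only 30 sites held both, 1847 held AP-1 without CTCF, 574 held CTCF without AP-1, and 2307 held neither. Since the summit comes from the peak that chose the site, these shares are a description.

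CEBP letters were at 21.6% of the sites, TEAD at 16.7%, RUNX at 18.7%, and the AGGAAG form of ETS at 25.9%, but these short motifs are frequent in any window. They stood at 17.3%, 10.9%, 14.5%, and 20.3% of the windows to either side, and CEBP letters were at 21.6% of the tiled windows, the same as at the sites. STAT matches were at 6.89% against 6.37%, and GRHL matches at 2.59% against 2.81%. KLF/SP1 matches, frequent in promoters, were at 2.84% of later-intron sites and 20.6% of promoter sites. CREB matches were at 16 later-intron sites, or 0.336%, and at 2.27% of promoter sites.

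**Figure D3:**
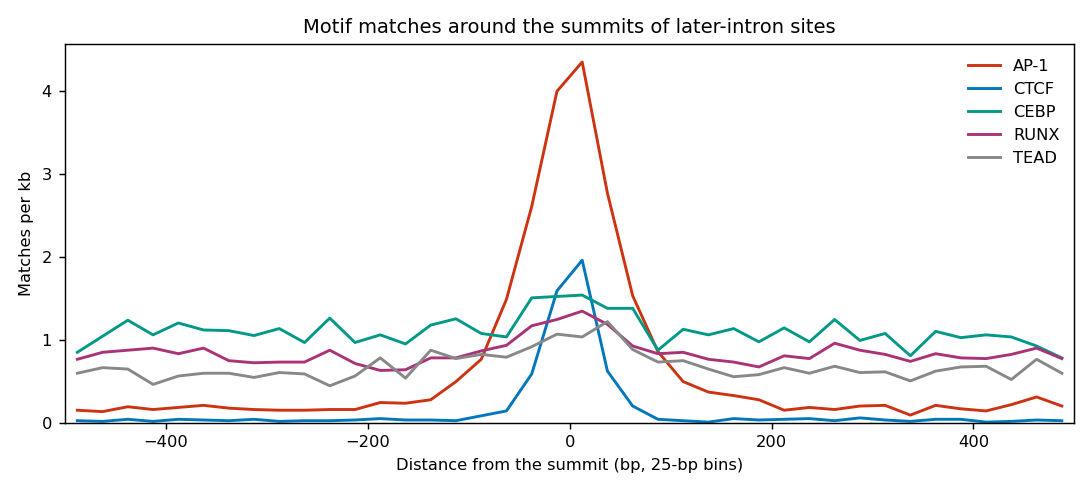
Matches per kb to AP-1, CTCF, CEBP, RUNX, and TEAD motifs in 25-bp bins from 500 bp before to 500 bp after the summits of the 4758 later-intron sites. AP-1 and CTCF rise steeply within 50 bp of the summit, and the other motifs lie on a higher base and rise less.

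For CEBP, TEAD, STAT, and KLF/SP1, 1 site each is shown, so that the letters can be seen beside the summit, which is the middle base. Each had the highest mean rank over the TAM libraries among sites called in all 6 with the match inside the printed window.
TNRC18 intron 2 (chr7:5436903-5437003): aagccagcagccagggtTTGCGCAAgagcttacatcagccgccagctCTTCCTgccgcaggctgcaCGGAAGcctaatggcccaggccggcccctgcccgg
BICDL1 intron 8 (chr12:120524812-120524912): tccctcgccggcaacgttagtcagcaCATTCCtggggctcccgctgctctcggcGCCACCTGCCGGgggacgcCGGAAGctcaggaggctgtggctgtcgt
ARID3B intron 2 (chr15:74838688-74838788): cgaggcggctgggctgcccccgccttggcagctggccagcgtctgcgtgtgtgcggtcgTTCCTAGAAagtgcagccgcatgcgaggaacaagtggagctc
RGS12 intron 17 (chr4:3438787-3438887): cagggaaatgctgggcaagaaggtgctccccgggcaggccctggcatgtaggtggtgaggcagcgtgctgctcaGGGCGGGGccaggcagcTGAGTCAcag

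The site in intron 2 of TNRC18 (chr7:5436747-5437262) holds a CEBP match and both ETS forms, and its fold enrichment was 10.7, 8.54, and 10.4 in S100A8-Flag TAM and 17.0, 15.9, and 12.4 in S100A9-Flag TAM, with 9.99, 6.38, and 8.38 in 3 EtOH libraries. At intron 8 of BICDL1 (chr12:120524642-120525388), a dynein and Rab6 adaptor, a TEAD match stands beside CTCF and ETS letters, and the TAM libraries gave 8.30 to 16.01. S100A9-Flag EtOH replicate 2 also called the BICDL1 site, at 7.84. At intron 2 of ARID3B (chr15:74838236-74838934), an AT-rich DNA binding protein, a STAT match lies near the summit, and the TAM libraries gave 8.20 to 21.9. The site was also called in 3 EtOH libraries, at 9.59, 14.6, and 7.30, which overlap. At the last intron of RGS12 (chr4:3438282-3439148), a regulator of G protein signaling, KLF/SP1 and AP-1 letters both follow the summit, and the values were 21.6, 13.8, and 10.2 in S100A8-Flag TAM and 9.63, 11.3, and 15.5 in S100A9-Flag TAM. The 2 EtOH libraries that called it gave 10.4 and 9.90, within the range of TAM.

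AP-1 letters were at a higher share of later-intron peaks in every TAM library than in any EtOH library, although the test adjusted over motifs did not pass. The shares were 29.5% and 28.8% in S100A8-Flag EtOH, 33.3%, 37.0%, and 37.0% in S100A8-Flag TAM, 24.9%, 23.7%, and 20.4% in S100A9-Flag EtOH, and 38.5%, 37.2%, and 37.0% in S100A9-Flag TAM. The lowest TAM value lay above the highest EtOH value. The difference within proteins was 10.6 percentage points (exact permutation test, p = 0.01, adjusted p = 0.15 over 15 motifs, the smallest that 1 motif alone can reach). When first introns of every transcript were set aside, or with gene starts as the only TSSs, further motifs also reached low p-values and the adjusted p of AP-1 was 0.0375 and 0.03, at 10.9 and 11.7 percentage points. With 1853 peaks per library the difference was 18.1 percentage points (exact permutation, adjusted p = 0.075). Intergenic peaks of the same libraries held AP-1 letters at 18.3% to 27.4% in EtOH and 30.6% to 35.8% in TAM, and first-intron peaks at 19.0% to 32.4% and 32.4% to 39.2%, so the higher share in TAM was not particular to later introns. The difference between treatments was 2.23 percentage points larger in later than in first introns, which did not pass (exact permutation test, p = 0.16, adjusted p = 0.213). It was 5.38 larger than in promoters (exact permutation test, p = 0.01, adjusted p = 0.015). Promoter peaks had a lower base, with AP-1 letters at 4.23% to 7.08% in EtOH and 10.1% to 11.6% in TAM. Relative changes were not tested. By protein the difference in later introns was 14.5 percentage points for S100A9-Flag and 6.59 for S100A8-Flag.

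No motif passed the adjustment between treatments at q ≤ 1e-07 with all peaks and the annotation used here. The share of later-intron peaks with CTCF averaged 11.6% ± 2.48 over EtOH libraries (SD, n = 5) and 10.7% ± 2.19 over TAM libraries (SD, n = 6; difference −0.598 percentage points within proteins, exact permutation test, adjusted p = 0.568). GRHL letters were at 1.56% ± 0.77 in EtOH and 2.52% ± 0.14 in TAM (exact permutation, raw p = 0.03, adjusted p = 0.171). NF-kB and STAT letters were at 7.39% and 5.30% in EtOH and at 6.45% and 6.66% in TAM, with adjusted p = 0.171 and 0.25 in the same exact test. The mean GC content of these windows was 56.7% ± 1.08 over the EtOH libraries (SD, n = 5) and 51.9% ± 0.36 over the TAM libraries (SD, n = 6), a difference of −4.85 percentage points within proteins (exact permutation test, p = 0.01, adjusted p = 0.015). The difference was −4.63 percentage points in first introns, −5.35 in intergenic peaks, and −2.49 in promoters, and its part in the motif shares was not tested.

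**Figure D4:**
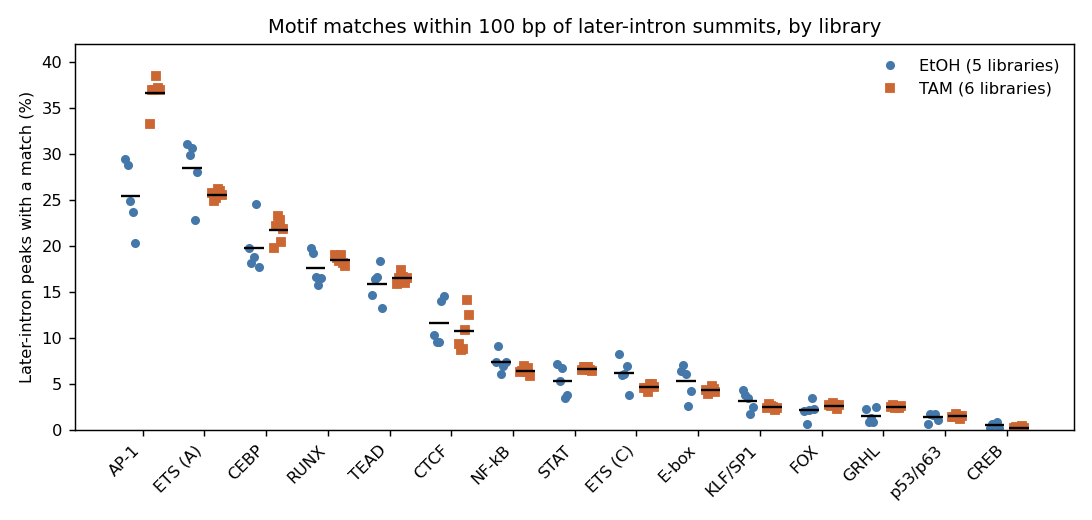
Share of later-intron peaks with a motif match within 100 bp of the summit, in percent, for 15 motifs; circles are the 5 EtOH libraries, squares are the 6 TAM libraries, horizontal lines are means, and ETS (A) and ETS (C) are the AGGAAG and CGGAAG forms. For AP-1 the lowest TAM library, at 33.3%, lies above the highest EtOH library, at 29.5%, and for the other motifs the ranges overlap.

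Compared with first introns in the same libraries, later introns differed in CTCF letters. The share of peaks with CTCF was 11.1% ± 2.25 in later introns and 7.32% ± 1.32 in first introns (SD, n = 11 libraries), and later introns were higher in 11 of 11 libraries by 3.82 percentage points on average (exact permutation of signs, p = 0.000977, adjusted p = 0.0146). The libraries share cells and genome, so p-values from exact permutation of signs cover the spread between libraries only. With 1853 peaks per library the difference in CTCF was 3.71 percentage points and did not pass (exact permutation, adjusted p = 0.0586). The share with AP-1 was 31.6% in later introns and 32.3% in first introns, a difference of −0.757 percentage points (exact permutation, adjusted p = 0.656). This comparison depended on the annotation. It was 2.24 percentage points with gene starts as the only TSSs, −3.21 with a limit of 5000 bp from a TSS, and −1.84 with first introns of every transcript set aside (exact permutation, adjusted p = 0.0146 each).

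Compared with intergenic peaks, later introns held AP-1 letters more often, at 31.6% against 29.2%, in 11 of 11 libraries (2.36 percentage points, exact permutation of signs, adjusted p = 0.00488). The difference was −0.313 with gene starts as the only TSSs and −0.0299 with every deposited peak, so it rests on these choices. RUNX letters were also more frequent, at 18.1% against 14.99% in 11 of 11 libraries, and CTCF letters less, at 11.1% against 13.1%, with 10 of 11 libraries lower (exact permutation, adjusted p = 0.00488 and 0.00732). Compared with promoters, AP-1 was higher by 23.1 percentage points, CEBP by 12.3, and RUNX by 10.2, and the CGGAAG form of ETS was lower by 17.5 and KLF/SP1 by 16.01, each in 11 of 11 libraries (exact permutation, adjusted p = 0.00163).

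Sites were found along the whole of their genes, somewhat nearer to a TSS than positions tiled over later introns. The median intron number was 5, the highest 124, and the median distance from the start of the longest transcript was 73742.5 bp. Intron 2 held 1161 sites, or 24.4%, intron 3 held 761, intron 4 held 441, and introns 5 and later held 2395, or 50.3%. The last intron of the transcript held 598 sites, or 12.6%. Positions tiled every 2000 bp over later introns gave 21.7% for intron 2, 53.1% for introns 5 and later, and 10.2% for the last intron. The median distance to the nearest TSS was 9858 bp, against 16075 bp for the tiled positions, and 28.3% of the sites and 19.4% of the tiles had a TSS within 5000 bp. Introns longer than 50000 bp held 27.8% of the sites and 38.0% of the tiles. At 184 sites, or 3.87%, the summit fell on an exon of some other transcript of a protein-coding gene, against 2.05% of tiles. The sites were narrow, with a median width of 273 bp, against 487 bp for promoter sites and 291 bp for first-intron sites.

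The members nearest the limits were close to them. The lowest −log10 q of a peak in a site was 7.00094, and the highest below the limit among later-intron peaks was 6.99985. The site nearest to a TSS was at 1501 bp, and the farthest site classed near a TSS was at 1500 bp.

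The 4758 sites lay in 2865 of 17538 protein-coding genes with at least 2 introns, or 16.3%. Of these genes 1072 had at least 2 sites, 125 had at least 5, and 12 had at least 10. Over all genes there were 0.540 sites per 100 kb of later intron. The share of genes with a site rose with length, from 2.55% of genes with up to 10000 bp of later intron to 64.1% of those with over 300000 bp. The density of sites was 0.640 and 0.339 per 100 kb in the same genes, and it was highest, at 0.750, in genes with 10000 to 30000 bp. Chromosome 15 had 0.921 and chromosome X 0.163 sites per 100 kb, the highest and lowest of the 23 chromosomes. Of genes with a later-intron site, 61.2% also had a union site within 1500 bp of 1 of their own TSSs, and 54.1% of the other 14673 genes did. Neighboring sites on a chromosome lay a median of 141722 bp apart, and 14.8% of neighboring pairs were within 10000 bp.

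Among the genes with 10 or more sites, the 1 gene with the most, at 16, is not reported here. RPTOR, the scaffold of the mTORC1 kinase complex, had 14 in introns 3 to 20, of which 7 held AP-1 letters. NAV1, a microtubule-associated protein, had 12, and 7 of these were called in EtOH and 5 in all 6 TAM libraries. RAP1GAP2, which turns off the GTPase Rap1, had 12 with CTCF letters at 4 and AP-1 at 1, and the transcription factor gene CUX1 had 12 with AP-1 at 3. GNG7, a G protein gamma subunit, and KIAA1217 and ASTN2 had 11 each, of which KIAA1217 had 5 with the longest transcript by summed exon length and 4 outside the first introns of every transcript, and THSD4, a protein of matrix microfibrils, had 10.

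**Figure D5:**
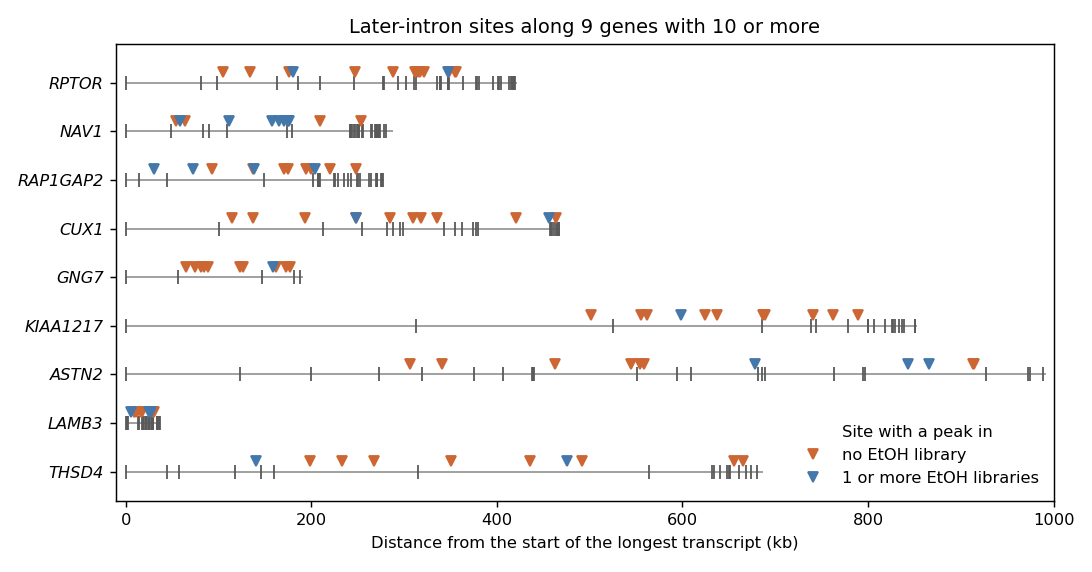
Positions of later-intron sites along the longest transcript of 9 genes with 10 or more, in kb from the transcript start; vertical ticks are exons and triangles are sites, blue where at least 1 EtOH library had a peak and orange where none had. NAV1 holds 7 sites called in EtOH, GNG7 and KIAA1217 hold 1 each, and LAMB3 packs 10 sites into introns 3 to 18 of a short gene.

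LAMB3, the beta chain of laminin-332 in the basement membrane of epithelia, stood out by density. It had 10 sites in 32155 bp of later intron (chr1:209788215-209825770, minus strand), or 31.1 per 100 kb. The sites ran from 6110 to 30500 bp after the transcript start. None was called in all 6 TAM libraries, 3 were called in an EtOH library, and 1 held AP-1 letters. MCL1, an inhibitor of apoptosis, reached 40.3 per 100 kb with 6 sites in intron 3 of its longest annotated transcript, and with the longest transcript taken by summed exon length it had 0. LMTK3, a membrane kinase, had 5 sites at 23.3 per 100 kb, PKP1, the desmosome protein plakophilin 1, had 5 at 14.7, and DENND3, which activates Rab12, had 6 at 11.1. The counts of LAMB3, LMTK3, PKP1, and DENND3 were the same by summed exon length. Genes at the top by sites or density were chosen for those values, which are a description.

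Gene lists were read against 16.3% of all genes with a site and 0.540 sites per 100 kb, and the median over all genes was 0 sites. Genes of actin, the cytoskeleton, and their regulators had sites in 18 of 30, or 60.0%, with a median of 1 site per gene and 0.801 sites per 100 kb, but their median length of later intron was 107680 bp against 18073 bp for all genes, and 44.8% of all genes with 100000 to 300000 bp had a site. MYO1E, a membrane-bound myosin, had 6, LPP, a zyxin relative at focal adhesions, had 4, of which 1 lay outside the first introns of every transcript, and MYH9, the heavy chain of nonmuscle myosin IIA, and VAV2, a guanine nucleotide exchange factor, had 3 each. The genes of the other lists were also longer than the median gene, with a median of later intron from 23378 to 62779 bp, except the transcription factors at 15378.5 bp. Over all genes 11.3% of those with 10000 to 30000 bp and 24.9% of those with 30000 to 100000 bp had a site. Genes of hemidesmosomes, laminins, and integrins had sites in 10 of 26, or 38.5%, with a median of 0 and 1.37 per 100 kb, the highest density of the 10 lists. Besides LAMB3, TNS3, a tensin of focal adhesions, had 5, and its relative TNS4 and LAMA5, the alpha chain of laminin-511, had 4 each. Of the 32 sites of this list 10 are those of LAMB3, and without that gene the density was 0.958 per 100 kb, below that of 3 other lists.

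AP-1 and other transcription factors of epithelium had sites in 15 of 30 genes, with a median of 0.5 and 1.06 per 100 kb. GRHL3, a regulator of the skin barrier, had 6 sites in intron 2 of an extended transcript and 0 with the longest transcript by exon length. BACH2, a repressor that binds AP-1-like elements, had 6 with AP-1 letters at 4, RUNX1 had 6, and ETS1 had 3, which became 1 by exon length and 0 outside the first introns of every transcript. In the list of TGF-beta and SMAD genes 9 of 28 had a site, or 32.1%, at 0.939 per 100 kb, among them LTBP1, which holds latent TGF-beta in the matrix, with 5, the related matrix protein LTBP2 with 4, and SMAD3, a signal transducer of the pathway, with 2, neither of them outside the first introns of every transcript. Wnt and Notch genes had sites in 10 of 31, or 32.3%, at 0.9501 per 100 kb, with TCF7L1 at 4 and the receptors NOTCH1 at 3 and NOTCH3 at 2. Genes of Hippo, YAP, and TEAD had sites in 7 of 24, or 29.2%, at 0.667 per 100 kb, with the kinase STK4 and the factor TEAD1 at 4 each.

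Matrix and protease genes had sites in 8 of 30, or 26.7%, at 1.05 per 100 kb, with 6 in COL4A2, a basement membrane collagen chain, and 4 in ADAM12, a metalloprotease, all 4 with AP-1 letters. Inflammation, NF-kB, and STAT3 genes had sites in 9 of 38, or 23.7%, at 0.987 per 100 kb. IRAK2, a kinase of interleukin-1 and Toll-like receptor signaling, had 4 in intron 2, of which 3 were called in EtOH, and STAT3 itself had 2. TNIP1 had 2 and TNFAIP3 had 1, both of which restrain NF-kB. Genes of cell adhesion and junctions had sites in 6 of 26, or 23.1%, at 0.531 per 100 kb, just under all genes. TJP1, the tight junction protein ZO-1, had 7, of which 5 held AP-1 letters, and its count was 4 with the longest transcript by exon length. The lowest share was in EGF receptor, RAS, and ERK genes, with 5 of 28, or 17.9%, at 0.233 per 100 kb, and the median gene of each list not given a median above had 0 sites. EGFR had 1 site, in intron 20, called in all 6 TAM libraries and no EtOH library, with AP-1 letters, and HBEGF, a ligand of EGFR, had 1 at 1702 bp from its transcript start. Counts of several genes were lower when only sites outside the first introns of every transcript were taken. NAV1 and RAP1GAP2 then had 7 each, TJP1 had 4, MYO1E and BACH2 had 3 each, LTBP2 had 2, TNIP1 had 1, and TNFAIP3 had 0.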

How the data were processed

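The authors aligned reads with Bowtie2 to hg19 and called peaks with MACS2 against input, per the labels and methods; versions are not given in the sources used here. Each deposited list is of 1 library and holds per peak a fold enrichment at the summit (a ratio over input) and −log10 of the p-value and q-value, besides an integer score that was not used. The deposited lists hold no read numbers, so depth and its precision are unknown. Of the 24 samples, 13, which are the Pol II and input samples, were not analyzed here.

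Peaks with q ≤ 1e-07 were kept; weaker EtOH peaks overlapping a site by 1 bp were looked up separately. The longest transcript was taken by genomic span, and intron classes used all its introns. Each library's own peaks were classed by their own summits, and ranks are percentiles of fold enrichment within a library. Treatments were compared by exact permutation within protein (200 arrangements), proteins by exact permutation within treatment (200), and classes of peaks by exact permutation of signs over 11 libraries, all two-sided, with Benjamini-Hochberg adjustment over 15 motifs or over the 15 other comparisons. Motifs were searched within 100 bp of a summit. Scripts used Python 3.11.15, numpy 2.4.6, pandas 2.3.3, pysam 0.24.0, and samtools 1.23.1, and were tested on simulated data. Sites, gene lists, and tests were chosen with earlier results of these data known. Named genes are the 10 with the most sites, the 5 densest with at least 5 sites, and up to 4 per list, of which 1 gene is not reported here. Named sites are those with the most libraries, and the highest ranked over TAM libraries of each TAM call pattern or motif. For motifs the match lay inside the printed window. The site with more EtOH than TAM libraries was the higher ranked of 2 that tied. Alternatives changed the q limit, the number of peaks, the replicates needed, the TSS set and distance, the first introns, and left out each library. Site counts by protein without each TAM library, and the list density without LAMB3, were added after seeing the data.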

Additional observations from a re-analysis of the deposited data

Results flagged for a closer look

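The treatment difference in AP-1 letters was not of the same size for both proteins. The share of later-intron peaks with AP-1 was 6.59 percentage points higher in TAM for S100A8-Flag and 14.5 for S100A9-Flag, and these differed by 7.95 percentage points (exact permutation test of the difference, raw p = 0.03, adjusted p = 0.15 over 5 comparisons), which did not pass the adjustment. The S100A9-Flag EtOH libraries were lower, at 23.003% ± 2.33 (SD, n = 3), than the S100A8-Flag EtOH libraries, at 29.2% ± 0.473 (SD, n = 2), while the TAM libraries stood at 37.5% ± 0.836 and 35.7% ± 2.12 (SD, n = 3 each). S100A9-Flag EtOH replicate 2 had 114 later-intron peaks, the fewest of the 11 libraries, and its part in the difference was not tested.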

How the results depend on the processing

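The number of later-intron sites was 10421 with every deposited peak, 2471 at q ≤ 1e-10, 192 with 1853 peaks per library, 1700 with a peak in every replicate, and 13471 with a peak in at least 1. Leaving out 1 library at a time gave 3361 to 4756, the lowest without S100A9-Flag TAM replicate 3. With every peak, the S100A9-Flag minus S100A8-Flag share was 0.164, AP-1 in later introns minus intergenic peaks was −0.0299, and the log2 ratio of later to first introns differed by 0.13 between treatments (exact permutation p = 0.07). At q ≤ 1e-10, the percentile difference between treatments was −3.60 and AP-1 in later minus first introns was 1.32. With 1853 peaks per library, the last was 1.96, CTCF in later minus first introns was 3.71, and the log2 ratio differed by 0.13. With first introns of every transcript set aside, the percentile difference was −0.00589, AP-1 differed by 10.9 between treatments and by −1.84 from first introns (both now passing), and the log2 ratio by 0.073. Sites over 5000 bp from a TSS gave −3.21 for AP-1 in later minus first introns. Gene starts alone gave 2.24 for it, 11.7 for AP-1 between treatments, and −0.313 for AP-1 against intergenic peaks. The causes were not tested.

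Without 1 library, the share in later introns differed between treatments by 6.35 to 7.24, the proteins by −1.40 to −0.510 (−1.30, exact permutation p = 0.02, without S100A9-Flag TAM replicate 3), the percentile by 0.847 to 2.83, AP-1 by 9.91 to 11.2, CTCF by −1.38 to −0.137, and the log2 ratio by 0.17 to 0.23. AP-1 against first introns ran from −1.02 to −0.216, AP-1 against intergenic peaks from 2.12 to 2.46, and CTCF against first introns from 3.38 to 4.04. With a replicate block over 5 pairs, where the smallest exact p is 0.0625, the share differed by 6.92, the log2 ratio by 0.21, the percentile by 1.58, AP-1 by 10.3, and CTCF by −0.568. Correlations across sites between same-numbered EtOH and TAM libraries of a protein were −0.000206 to 0.0245, and different-numbered ones were of similar size. The S100A8-Flag EtOH replicates gave values of equal size and opposite sign with each TAM library, so these values are not independent. They cannot decide whether the replicate numbers pair libraries. EtOH values rest on few peaks, 114 to 451 in later introns per library.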
